A study of Homo sapiens with 6 samples.

Results

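Expression of 10 subunit genes of mitochondrial ATP synthase was described at the level of the gene and of its transcripts in human endothelial cells with and without lipopolysaccharide. The genes were ATP5F1A, ATP5F1B, ATP5F1C, ATP5F1D, ATP5PB, ATP5PO, ATP5PD, ATP5MC1, ATP5MC2 and ATP5MC3. They are 10 of the 19755 protein-coding genes in the deposited tables, and they carry 106 of the 260410 annotated transcripts. They were chosen by symbol, and because isoforms of 3 of them had been seen to differ between control and treated libraries in these data. Differences between those groups in the 10 genes are therefore given as a description, and no test of them is used as support.

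RNA-seq of total RNA was available from 6 libraries of cells labelled EA.hy926, wild type, whose titles also name human umbilical vein endothelial cells (HUVEC). The EA.hy926 line was derived by fusion of an umbilical vein endothelial cell with a cell of the lung carcinoma line A549. The 3 control libraries and the 3 LPS libraries were grouped by title, since the treatment field is the same in all 6. LPS, a glycolipid from the outer membrane of Gram-negative bacteria, was given at 1000 ng/ml for 12 h, and control libraries carry the same 12 h label. All cells were grown in DMEM with serum. Whether replicates were separate cultures is not stated in the labels. The p-values therefore reflect only how far these libraries vary, and that variation may be technical. Values are FPKM (fragments scaled to transcript length and to the mapped total), which give no read depth. Summed over protein-coding genes they came to 256047 to 264878 per library. All 8 endothelial markers were detected, with PECAM1 at 55.6 ± 7.06 FPKM in control libraries (SD, n = 3). The leukocyte markers PTPRC and CD3E were listed at 0 in all 6 libraries, and LYZ and ITGAM in all but LPS 3, at 0.0526 and 0.143 FPKM. CD14 was low but present, at 0.484, 1.14 and 0.566 FPKM in controls and 0.431, 0.329 and 0.309 FPKM with LPS, without overlap. Of the epithelial markers, CDH1, EPCAM and SFTPB were at 0 or under 0.07 FPKM in each library, whereas the keratins were present, with KRT18 at 58.9 ± 5.88 FPKM in controls. All 6 fibroblast markers were detected as well, with PDGFRB at 75.4 ± 5.51 FPKM in controls, above PECAM1. Fibroblast collagens were abundant, with COL1A1 at 1394 ± 139 FPKM in controls and 1526 ± 59.8 FPKM with LPS. The markers therefore do not show a purely endothelial identity. Of the 6 fibroblast markers 4 had a negative log2 difference, and COL3A1 (811 ± 57.6 and 666 ± 134 FPKM) and LUM (21.5 ± 4.65 and 12.8 ± 2.78 FPKM) were lower in every LPS library than in every control. The summed epithelial markers lay between 125 and 138 FPKM in controls and between 91.2 and 114 FPKM with LPS. Within that list KRT8, KRT18 and KRT19 were lower and KRT7 higher in every LPS library. The summed endothelial markers lay between 330 and 441 FPKM in controls and between 385 and 507 FPKM with LPS. All 8 had a positive log2 difference. TEK, ERG and PECAM1 were higher in every LPS library than in every control, and the others overlapped. Over all 12068 tested protein-coding genes, 8.73% were lower in every LPS library than in every control. None of the tested marker genes passed an adjusted p under 0.05 in limma. Their part in the values below was not tested, and in bulk RNA fewer cells of a type and less RNA per cell cannot be told apart.

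ATP synthase makes ATP at the inner mitochondrial membrane from the proton gradient that the respiratory chain builds. Protons drive a ring of c subunits in the membrane, the ring turns the central stalk, and the turning stalk changes the shape of the catalytic sites in the soluble F1 head. A peripheral stalk holds the head still against the membrane. Endothelial cells obtain much of their ATP from glycolysis, and their mitochondria are often studied for signalling and oxidant production.

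At the gene level, ATP5F1B was the most abundant of the 10 and ATP5MC3 the least. Their means over 6 libraries were 181 and 12.6 FPKM. FPKM is scaled to length and so allows this order between genes. Between them came ATP5F1A at 94.1, ATP5PD at 69.2, ATP5F1C at 53.0, ATP5PO at 52.7, ATP5PB at 49.3, ATP5MC2 at 42.9, ATP5F1D at 42.0 and ATP5MC1 at 30.0 FPKM. The ranges of ATP5F1C, ATP5PO, ATP5PB, ATP5MC2 and ATP5F1D overlapped one another, so their order is within the spread. ATP5MC1 overlapped ATP5PO, ATP5PB, ATP5MC2 and ATP5F1D, and ATP5PD overlapped ATP5PO and ATP5F1A. The range of ATP5F1A also overlapped those of ATP5PO and ATP5F1B, although ATP5F1B was above ATP5F1A in every library. The mean of ATP5F1A was raised by control 2 and LPS 2, at 150 and 133 FPKM. In LPS 3 it was under ATP5PD, at 65.2 against 70.5 FPKM. The 10 genes summed to 646, 715 and 606 FPKM in controls and to 581, 611 and 601 FPKM with LPS, with the second LPS library above the lowest control.

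**Figure D1:**
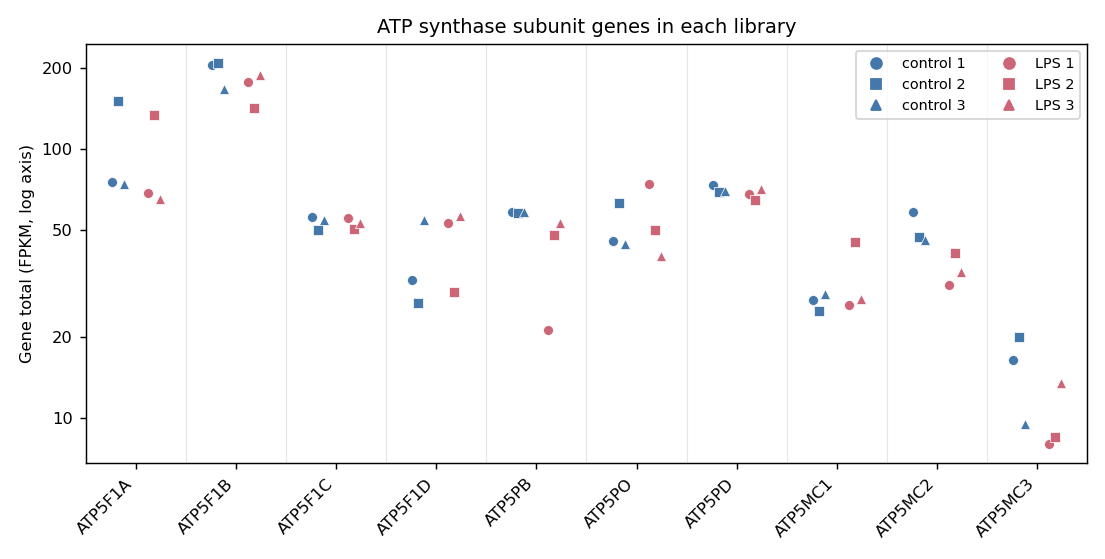
Gene totals in FPKM (log axis) of the 10 subunit genes, with 1 point per library; colour gives the group and shape the library number. ATP5PB and ATP5MC2 are the genes whose 3 LPS points all lie under their 3 control points, and ATP5F1A is high in control 2 and LPS 2.

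None of the 10 gene totals passed an adjusted p under 0.05 in limma, where 0.058% of the 12068 tested protein-coding genes passed. The log2 difference, LPS minus control, on the log2(FPKM + 0.5) scale was positive in 3 and negative in 7 members. Its median was -0.11, beside -0.01 over all tested genes. Groups did not overlap for 2 members, ATP5PB and ATP5MC2, both lower with LPS, where 8.73% of tested genes were lower without overlap. Among the 106 transcripts, 28 were listed at 0 everywhere and 45 reached a mean of 0.5 FPKM and were tested. Of these 45, 1 was called higher and 2 lower, where 0.0392% and 0.0588% of 35727 tested transcripts were. Taken as a percent of the gene's summed FPKM, 7 of 45 isoform shares did not overlap between groups, where 9.84% of 31057 shares did not. Of the 7, 3 were higher and 4 lower with LPS, where 4.96% and 4.88% of shares were. As ratios to the rest of the gene, 2 of 45 isoforms were called, where 0.0869% of 31057 were. The 7 shares, the 3 called transcripts and the 2 called ratios all belonged to ATP5PB, ATP5MC2 and ATP5F1C. Isoform differences in these genes led to the choice, so nothing is read from any of these counts. In 13 of the 45 the mean share differed by at least 10 points, where 25.1% of all shares did.

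FPKM depends on which isoform fragments are assigned to, because each isoform is scaled by its own length. In the deposited tables a gene's FPKM equals the sum of its transcripts' FPKM. A second gene total was therefore made by multiplying each transcript's FPKM by its length in kilobases before summing, which counts fragments rather than molecules. It is given in FPKM × kb and was chosen after the data had been seen.

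In the catalytic head, ATP5F1A encodes the alpha subunit, which alternates with beta around the head and holds nucleotide without catalysis. Its gene total was 75, 150.0 and 74.0 FPKM in controls and 68.4, 133 and 65.2 FPKM with LPS. The second library of each group was about as high as the other two of its group combined, and the groups overlapped. The excess came from a single transcript, ATP5F1A-211, an isoform of 1931 bases annotated as a target of nonsense-mediated decay (the removal of RNAs with an early stop). It was at 134 FPKM in control 2 and 120.0 FPKM in LPS 2, and was listed at 0 in the other 4 libraries. The coding isoform ATP5F1A-202, of 5761 bases, went the other way, at 50.6, 10.5 and 54.6 FPKM in controls and 46.1, 7.54 and 46.0 FPKM with LPS. ATP5F1A-211 differs from it in a last exon of 214 instead of 4116 bases (chr18:46084150-46084363 against chr18:46080248-46084363, GRCh38, minus strand) and in an exon 2 that runs on for 73 bases. The retained-intron isoforms ATP5F1A-209 and ATP5F1A-206 were also low in the second libraries, at 1 and 1.88 FPKM and at 2.33 and 1.94 FPKM, with ranges of 8.24 to 14.3 and 6.14 to 12.0 FPKM elsewhere. ATP5F1A-217 stayed between 0.370 and 1.69 FPKM. The end of the reading frame of ATP5F1A-211, from GENCODE 29, is shown because it carries the stop. Capitals mark the bases that ATP5F1A-202 lacks, at chr18:46095015-46095072.
ATP5F1A-211 exon 2 end: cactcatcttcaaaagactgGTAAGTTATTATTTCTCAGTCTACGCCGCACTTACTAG

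The fragments assigned to ATP5F1A changed far less than its FPKM. The length-weighted total was 311, 323 and 330.0 FPKM × kb in controls and 285, 280.0 and 281 FPKM × kb with LPS. All 3 LPS libraries were lower than all 3 controls, by a log2 difference of -0.19 ± 0.07 (SE, n = 3 a group), where 10.2% of 11004 tested genes were lower without overlap on that scale. The SD of log2 values within groups was 0.57 for summed FPKM and 0.03 for the length-weighted total. The isoform that appears in control 2 and LPS 2 does not follow the treatment, since each group has it in 1 library. In the whole transcript table, 8 transcripts were above 10 FPKM in control 2 and LPS 2 and under 1 FPKM in the other 4 libraries, and the 15 possible pairs of libraries gave 1 to 13.

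ATP5F1B encodes the catalytic beta subunit. It was at 205, 208 and 167 FPKM in controls and 177, 142 and 187 FPKM with LPS, and the groups overlapped. ATP5F1B-201 made up 95.6% to 98.2% of the gene in every library, so gene and isoform gave the same picture here. ATP5F1B-210 ranged from 1.08 to 7.56 FPKM. The log2 difference of the ATP5F1B gene was -0.20 ± 0.14 (SE) for summed FPKM and -0.20 ± 0.13 for the length-weighted total.

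ATP5F1C encodes the gamma subunit, the shaft that turns inside the head. Its gene total was 55.5, 49.9 and 54.5 FPKM in controls and 55.0, 50.4 and 52.8 FPKM with LPS. These ranges lay on top of each other, and the highest library was 1.11 times the lowest. Beneath that total the isoforms differed. ATP5F1C-204, a processed transcript of 622 bases that stops at the sixth exon, was at 0.455, 0.537 and 0.361 FPKM in controls and 6.90, 6.77 and 6.22 FPKM with LPS. Every LPS library was above every control, with a log2 difference of 2.91 ± 0.17. ATP5F1C-201, the main coding isoform, was at 37.0, 35.9 and 39.1 FPKM in controls and 29.4, 30.9 and 30.8 FPKM with LPS. ATP5F1C-210, a processed transcript without the 35 bases of exon 2 (chr10:7796121-7796155), was at 6.98, 7.10 and 8.94 FPKM in controls and 3.59, 0.992 and 1.24 FPKM with LPS. Both were lower in every LPS library than in every control. As shares, ATP5F1C-204 went from 0.852% ± 0.208 to 12.6% ± 0.833, ATP5F1C-201 from 70.1% ± 3.03 to 57.7% ± 3.96, and ATP5F1C-210 from 14.4% ± 1.93 to 3.61% ± 2.53 (SD, n = 3).

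The annotated proteins of ATP5F1C differ at their end by a 37-base exon (chr10:7806974-7807010, plus strand). Its inclusion is known from most tissues and its skipping from heart and skeletal muscle. The last 30 coding bases of both isoforms are shown because the exon replaces the stop codon, with capitals for bases of the final coding exon (chr10:7802829-7807662 and chr10:7802832-7806980, across introns). The coding sequence is 891 bases without the exon and 894 with it.
ATP5F1C-201 end: gaaattatctctggtgctgcagctctGTAA
ATP5F1C-202 end: attatctctggtgctgcagctctGGATTAA

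Of the FPKM in transcripts that span this exon, those with it (5 transcripts) made up 30.6%, 25.7% and 26.4% in controls and 35.9%, 28.7% and 31.1% with LPS. The only transcript without it was ATP5F1C-201. The means were 27.6% ± 2.62 and 31.9% ± 3.69 (SD, n = 3), and the groups overlapped. The coding isoform that includes the exon, ATP5F1C-202, was low and uneven, from 0.290 FPKM in control 3 to 9.01 FPKM in LPS 3. The remaining described isoforms overlapped between groups, with ATP5F1C-208 between 0 and 10.6 FPKM, ATP5F1C-209 between 1.94 and 6.26 FPKM and ATP5F1C-207 between 0.258 and 2.21 FPKM. The length-weighted total of ATP5F1C, in which the short ATP5F1C-204 counts for less, was 54.9, 52.2 and 55.6 FPKM × kb in controls and 48.5, 44.9 and 51.5 FPKM × kb with LPS. On this scale all LPS libraries were lower, with a log2 difference of -0.17 ± 0.09, against -0.01 ± 0.09 for summed FPKM.

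ATP5F1D encodes the delta subunit, at the foot of the central stalk. It was at 32.4, 26.6 and 54.4 FPKM in controls and 52.8, 29.4 and 56.3 FPKM with LPS. The second library of each group was its lowest, and the groups overlapped. The 3 isoforms with the same 504-base coding length took turns as the largest. ATP5F1D-207 led in control 1 at 44.9% of the gene, ATP5F1D-202 in control 2 at 39.5% and LPS 2 at 40.1%, and ATP5F1D-201 in the rest. ATP5F1D-207 was at 14.6, 0 and 5.62 FPKM in controls and 4.16, 0 and 5.28 FPKM with LPS. ATP5F1D-201 was at 3.99, 9.17 and 18.9 FPKM in controls and 23.2, 7.58 and 24.2 FPKM with LPS. The mean shares of both differed by over 10 points between groups, but each overlapped, and the differences were smaller than the spread within controls. The retained-intron isoforms ATP5F1D-209 and ATP5F1D-205 ranged from 1.70 to 12.9 and from 0.721 to 8.68 FPKM, with both groups overlapping.

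In the peripheral stalk, ATP5PB encodes subunit b, the long helix that ties the head to the membrane. Its total was 58.2, 57.7 and 58.1 FPKM in controls and 21.2, 47.9 and 52.7 FPKM with LPS. The controls were nearly equal, all LPS libraries were lower, and LPS 1 stood far below the other two. Behind the totals the isoform with the highest estimated FPKM differed between groups. Whether the RNA changed or its fragments were placed on another isoform was not tested. ATP5PB-201 was at 49.5, 47.8 and 46.0 FPKM in controls, and with LPS at 0, 0.996 and 1.02 FPKM. ATP5PB-204 was listed at 0 in all controls and in LPS 1, and at 35.2 and 37.8 FPKM in LPS 2 and LPS 3. ATP5PB-202 was at 6.90, 6.58 and 8.51 FPKM in controls, and with LPS at 20, 9.5 and 10.6 FPKM. ATP5PB-201 therefore made up 82.4% ± 2.96 of the gene in controls and 1.34% ± 1.16 with LPS, without overlap. ATP5PB-204 took most of the gene in 2 LPS libraries and none in the third, where ATP5PB-202 made up 94.3%. The minor ATP5PB-206 and ATP5PB-203 ranged from 0.325 to 2.45 and from 0.744 to 2.07 FPKM.

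ATP5PB-202 (2628 bases, 7 exons) is the isoform annotated as coding for subunit b. ATP5PB-201 (1040 bases) and ATP5PB-204 (859 bases) are processed transcripts with no annotated coding sequence, and they resemble each other. Neither has exon 3 of ATP5PB-202, and ATP5PB-204 also lacks the first 141 bases of exon 4. The exons are shown because they hold the coding bases by which the isoforms differ internally, from GENCODE 29 (GRCh38, plus strand). Exon 3 lies at chr1:111454211-111454356 and exon 4 at chr1:111456086-111456249. Capitals mark bases absent from ATP5PB-204, and all of exon 3 is absent from ATP5PB-201 as well. ATP5PB-202 also has a last exon of 1857 bases, against 416 in ATP5PB-201 and 396 in ATP5PB-204, which makes up most of its greater length.
ATP5PB-202 exon 3: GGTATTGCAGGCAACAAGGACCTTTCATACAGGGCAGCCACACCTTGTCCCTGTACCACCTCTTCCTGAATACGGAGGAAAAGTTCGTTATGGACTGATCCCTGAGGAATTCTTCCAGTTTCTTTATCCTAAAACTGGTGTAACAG
ATP5PB-202 exon 4: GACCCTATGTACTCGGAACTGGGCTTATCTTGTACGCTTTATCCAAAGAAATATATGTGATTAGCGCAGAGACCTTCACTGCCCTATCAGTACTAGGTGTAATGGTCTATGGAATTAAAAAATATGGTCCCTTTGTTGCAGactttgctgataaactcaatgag

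Summed FPKM of ATP5PB-201 and ATP5PB-204, both without exon 3, was 49.5, 47.8 and 46.0 in controls and 0, 36.2 and 38.9 with LPS. Their combined share was 79.3% to 85.1% in controls, and 0%, 75.6% and 73.7% with LPS. In LPS 2 and LPS 3 the exon-3-lacking form was thus listed mostly as ATP5PB-204, and in controls as ATP5PB-201. The length-weighted total of ATP5PB was 70.8, 69.3 and 72.6 FPKM × kb in controls and 53.4, 57.8 and 63.7 FPKM × kb with LPS. LPS libraries were again lower without overlap, but the log2 difference was -0.28 ± 0.09 against -0.61 ± 0.31 for summed FPKM. LPS 1 was nearer the other LPS libraries on this scale, and 52.6 of its 53.4 FPKM × kb were on the long ATP5PB-202. Without LPS 1, the log2 difference in summed FPKM was -0.20.

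**Figure D2:**
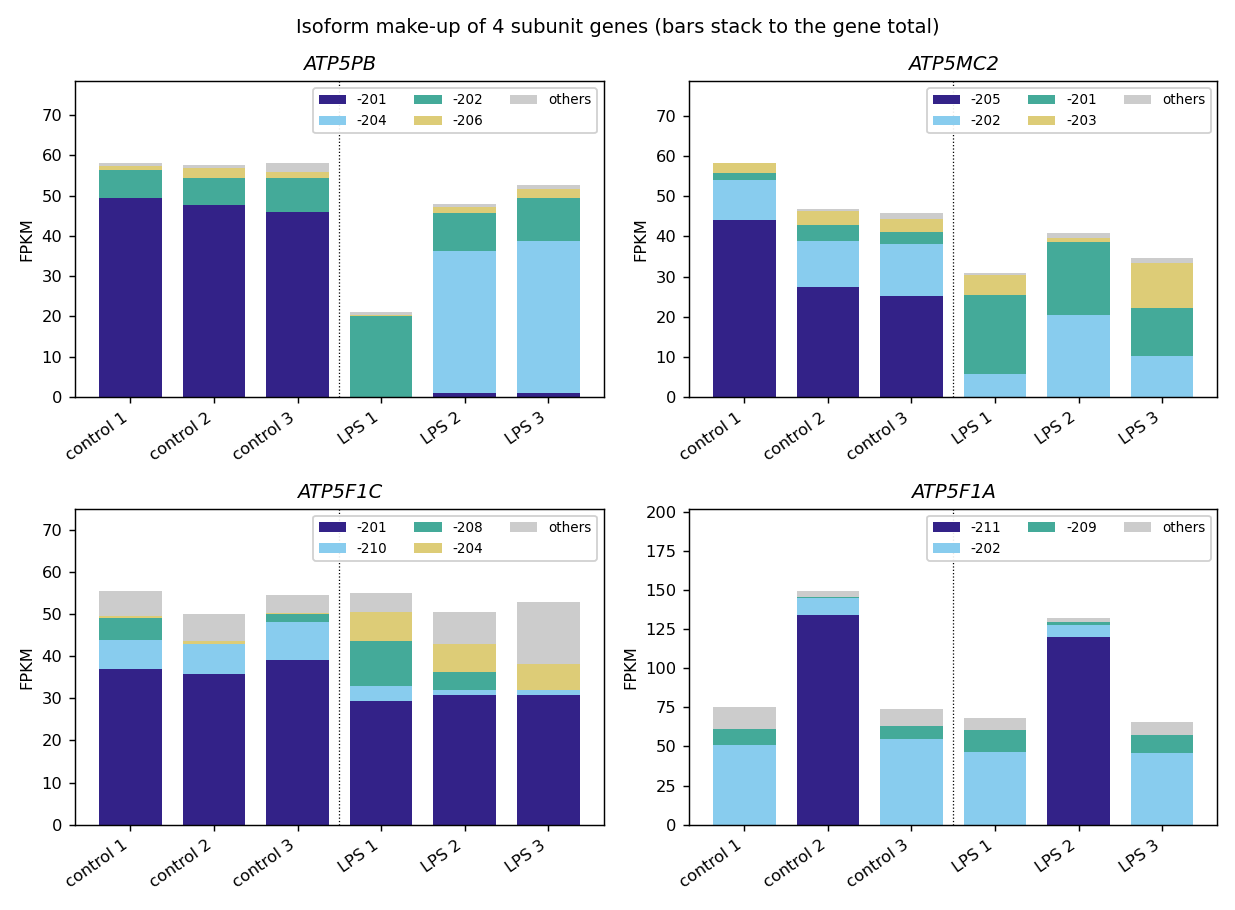
FPKM of the leading isoforms of ATP5PB, ATP5MC2, ATP5F1C and ATP5F1A in each library; bars stack to the gene total and the dotted line separates controls from LPS. The largest ATP5PB and ATP5MC2 isoforms of the controls are near 0 in every LPS library, and ATP5F1A-211 appears in control 2 and LPS 2 alone.

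ATP5PO encodes OSCP, the cap that joins the peripheral stalk to the head. It was at 45.2, 62.9 and 44.3 FPKM in controls and 74.1, 49.9 and 39.9 FPKM with LPS. LPS libraries held both the highest and the lowest value. ATP5PO-201 made up 79.5% of the gene in control 1, where ATP5PO-205 took 17.2%, and 93.1% to 98.9% in the other 5 libraries. ATP5PD encodes subunit d of the same stalk. It was among the steadiest members, at 73.0, 69.2 and 69.7 FPKM in controls and 68.0, 64.6 and 70.5 FPKM with LPS. ATP5PD-201 made up 93.0% to 98.2% of it in every library, and an assembled transcript without an Ensembl identifier took 0.337% to 4.92%.

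For the c-ring, ATP5MC1, ATP5MC2 and ATP5MC3 encode the same mature c subunit with different import sequences. ATP5MC2 had the highest mean of the 3, although ATP5MC1 was above it in LPS 2. It was at 58.3, 46.8 and 45.9 FPKM in controls and 31.0, 40.8 and 34.8 FPKM with LPS. All LPS libraries were lower than all controls, with a log2 difference of -0.50 ± 0.14. ATP5MC2-205 was at 44, 27.4 and 25.2 FPKM in controls, and with LPS at 0.0719, 0 and 0 FPKM. ATP5MC2-201 was at 1.63, 4.06 and 3.05 FPKM in controls, and with LPS at 19.7, 18.4 and 11.8 FPKM. Neither overlapped between groups, in opposite directions. ATP5MC2-202 did overlap, at 10.1, 11.5 and 12.8 FPKM against 5.74, 20.3 and 10.3 FPKM. In shares, ATP5MC2-205 went from 63.0% ± 10.9 to 0.0773% ± 0.134, and ATP5MC2-201 from 6.04% ± 2.99 to 47.5% ± 14.9. The retained-intron isoform ATP5MC2-203 was uneven with LPS, at 4.97, 0.802 and 11.3 FPKM, after 2.56, 3.40 and 3.40 FPKM in controls.

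ATP5MC2-205 has 728 bases, of which only 48 at the far end are annotated as coding, and its exon 3 runs on for 166 bases (chr12:53669949-53670114, minus strand) that the other 2 lack. ATP5MC2-202 and ATP5MC2-201 carry coding sequences of 423 and 471 bases. ATP5MC2-201 is the longest, at 1792 bases, because of a first exon of 1223 bases (chr12:53676176-53677398), in which its coding sequence starts. Its first coding bases are shown for that reason, with capitals for the first exon (chr12:53672626-53676192, across an intron).
ATP5MC2-201 start: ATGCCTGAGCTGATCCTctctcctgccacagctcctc

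The isoforms with the longer coding sequence, ATP5MC2-201 and ATP5MC2-202 together, were at 11.7, 15.6 and 15.9 FPKM in controls, and with LPS at 25.5, 38.7 and 22.2 FPKM. Every LPS library was higher, while the gene total was lower in every LPS library. The length-weighted total of ATP5MC2 was 48.9, 44.4 and 42.5 FPKM × kb in controls and 50.5, 53.0 and 53.2 FPKM × kb with LPS, higher in every LPS library, with a log2 difference of 0.21 ± 0.09. ATP5MC2 was thus lower with LPS as summed FPKM and higher as length-weighted total, neither overlapping. Of 10415 genes tested on both scales, 1 gene (0.0096%) had that combination, and it is ATP5MC2 itself. The combination was looked for after this gene was seen, so the count is a description. The reverse was found in 2 genes (0.0192%).

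**Figure D3:**
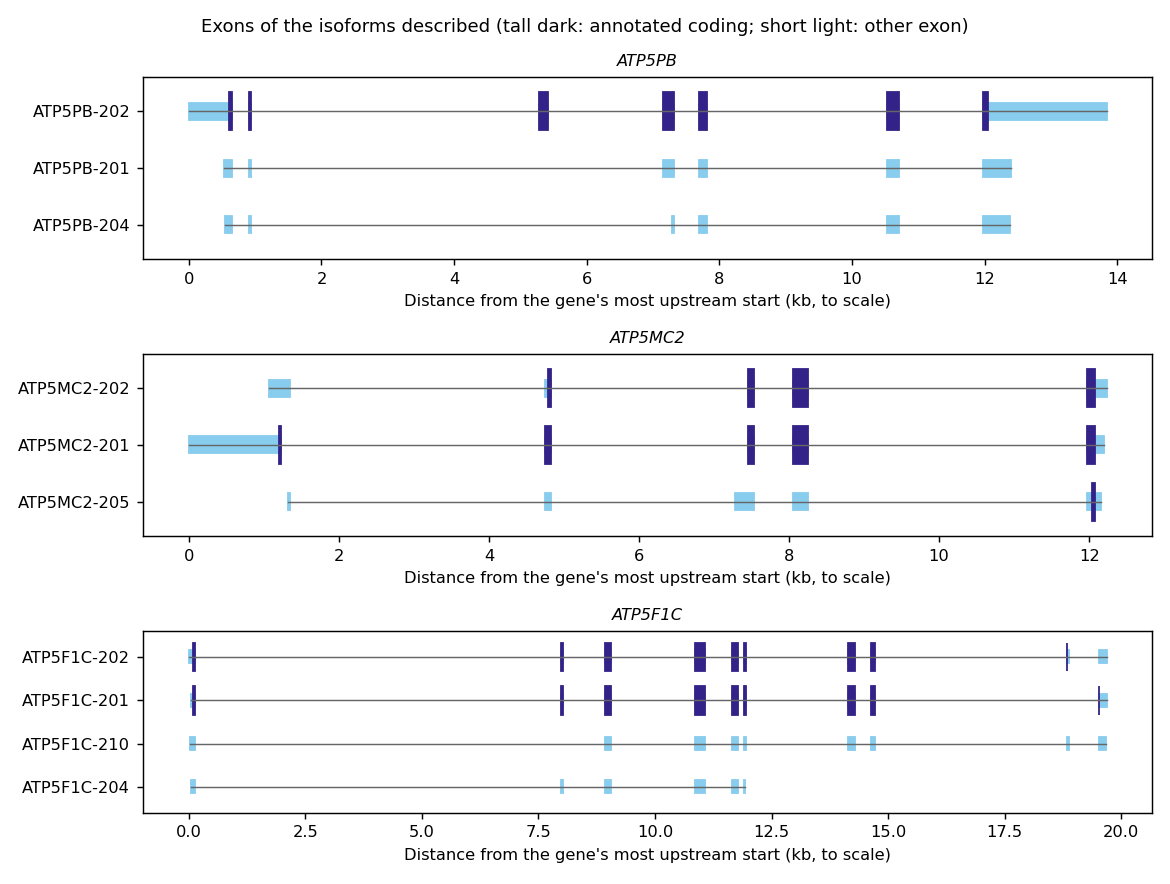
Exons of the described isoforms of ATP5PB, ATP5MC2 and ATP5F1C, drawn to scale as distance in kb from the most upstream start; tall dark boxes are annotated coding bases and short light boxes other exon bases, with ends as in GENCODE 29. ATP5PB-201 and ATP5PB-204 lack the third exon of ATP5PB-202, ATP5MC2-201 has the long first exon, and ATP5F1C-204 stops early.

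ATP5MC1 was at 27.4, 25.0 and 28.8 FPKM in controls and 26.2, 44.9 and 27.6 FPKM with LPS. LPS 2 stood above the rest, and the other 5 libraries lay together. ATP5MC1-201 led in every library, with 34.9% to 69.8% of the gene, and was at 31.3 FPKM in LPS 2 and between 9.12 and 18.3 FPKM elsewhere. ATP5MC1-204 was listed at 0 in LPS 2 and lay between 4.67 and 6.44 FPKM in the other 5 libraries. ATP5MC1-202, ATP5MC1-205 and ATP5MC1-203 ranged from 2.86 to 6.76, from 0.672 to 4.69 and from 0.00226 to 3.66 FPKM. ATP5MC3 was the lowest and among the most variable members, at 16.4, 20 and 9.48 FPKM in controls and 7.96, 8.5 and 13.5 FPKM with LPS. The groups overlapped. The variation lay in ATP5MC3-202 (842 bases), at 10.1, 14.7 and 2.29 FPKM in controls and 1.70, 1.99 and 6.15 FPKM with LPS. ATP5MC3-201 (5484 bases) was steady, at 5.22, 4.19 and 5.98 FPKM in controls and 5.26, 3.52 and 6.30 FPKM with LPS. Both isoforms have a coding length of 426 bases. ATP5MC3-205 stayed between 0.497 and 0.958 FPKM. An assembled transcript without an Ensembl identifier was at 2.07 FPKM in LPS 2, or 24.4% of the gene there, and at 0 in the other 5 libraries.

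On the length-weighted scale none of the 10 members passed the threshold, where 0.0182% of genes did. The log2 difference was positive in 4 and negative in 6, with a median of -0.12. The ATP5MC3 total in LPS 2 is incomplete, because 75.6% of its FPKM had a known length there. Groups did not overlap for 3 members that were lower, ATP5F1A, ATP5F1C and ATP5PB, and for 1 that was higher, ATP5MC2. On that scale 10.2% of all tested genes were lower without overlap and 9.69% higher. The spread of log2 values within groups was smaller than in summed FPKM for 5 of the 10 members, as it was for 44.4% of the 10415 genes on both scales. It went from 0.50 to 0.09 for ATP5PB and from 0.19 to 0.08 for ATP5MC2. For ATP5F1D it stayed high, at 0.52 and 0.56, and so did that of ATP5PO, at 0.37 and 0.40.

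**Figure D4:**
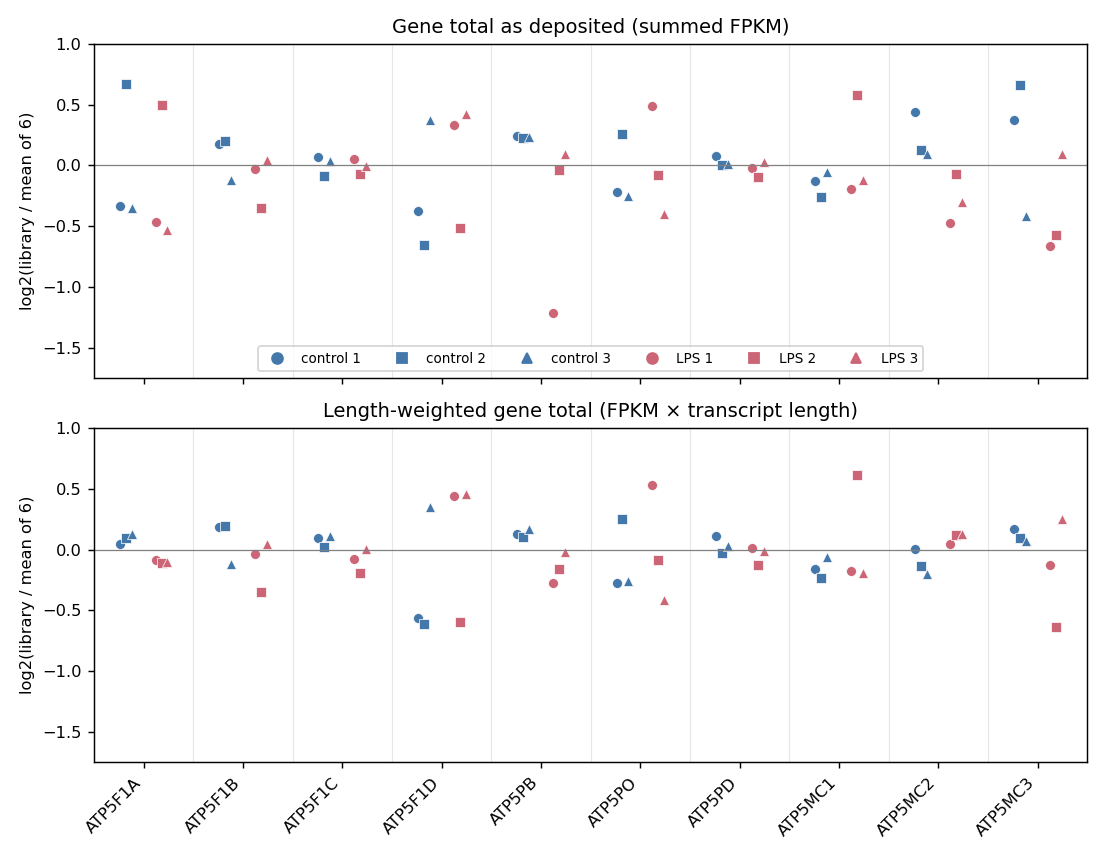
Each library's gene total divided by the mean of the 6 libraries (log2), as summed FPKM in the upper panel and as length-weighted total in the lower, with 1 point per library. The points of ATP5F1A and ATP5PB draw together in the lower panel, and ATP5MC2 changes from lower to higher with LPS.

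In 5 of the 10 genes the same isoform led in all 6 libraries, namely ATP5F1B, ATP5F1C, ATP5PO, ATP5PD and ATP5MC1. In 2 genes 2 isoforms led in turn, and in 3 genes 3 did. An isoform that led in all 3 controls and was at or near 0 in every LPS library was found in ATP5PB and ATP5MC2. That isoform has no annotated coding sequence in ATP5PB and 48 annotated coding bases in ATP5MC2. The protein-coding isoforms' share of ATP5PB was 12.6% ± 1.76 in controls and 94.3%, 19.8% and 20.1% with LPS.

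The other genes of the pathway were taken from lists of 108 genes, of which 103 were tested and none passed an adjusted p under 0.05 in limma, with 9 at an unadjusted p under 0.05. Over all tested genes 10.4% had an unadjusted p under 0.05. The log2 difference was positive in 29 and negative in 74, with a median of -0.06. The 8 other nuclear subunits and associated genes of ATP synthase all had negative differences in summed FPKM, with a median of -0.24, and 3 did not overlap between groups, where 8.73% of all tested genes were lower without overlap. The length-weighted total made 1 of the 8 positive. ATP5MD, a small membrane subunit, was at 45.4, 47.8 and 50.6 FPKM in controls, and with LPS at 39.9, 40.2 and 40.1 FPKM. Its log2 difference was -0.25 ± 0.09 and its adjusted p from limma 0.379. ATP5MPL, another small membrane subunit, had the largest difference of the 8, with 21.9 ± 4.95 FPKM in controls, 17.5 ± 1.6 FPKM with LPS and overlap. Summed over the 8 genes, controls gave 163, 145 and 151 FPKM and LPS libraries 130, 127 and 128 FPKM, without overlap.

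Of the assembly factors and the inhibitor, 1 of 6 had a positive difference. ATP5IF1, which blocks ATP hydrolysis by the enzyme when the proton gradient fails, was at 3.24, 2.61 and 2.48 FPKM in controls and 1.95, 2.02 and 1.06 FPKM with LPS. The groups did not overlap, and limma gave a log2 difference of -0.61 ± 0.22 with an adjusted p of 0.402. ATPAF2, a chaperone for the alpha subunit, was at 6.86 ± 0.310 FPKM in controls and 7.46 ± 0.310 FPKM with LPS, without overlap. The mitochondrial genome encodes MT-ATP6 and MT-ATP8, the membrane channel subunit and its small neighbour. Both were under 0.09 FPKM in every library and were not tested, although MT-CO1 was at 924 ± 119 FPKM in controls and 859 ± 83.2 FPKM with LPS. These 2 genes overlap each other, so their levels are uncertain, and the reason for the low values was not tested. Of the 13 mitochondrially encoded genes, 9 reached the mean required for testing. MT-CO3 was uneven within both groups, from 4.97 to 64.0 FPKM in controls and from 3.70 to 71.4 FPKM with LPS.

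The median log2 difference was -0.08 over 37 genes of complex I, -0.02 over 4 of complex II, -0.06 over 10 of complex III and cytochrome c, and -0.05 over 13 of complex IV. NDUFC2 of complex I had the largest difference, -0.89 ± 0.52 (adjusted p from limma 0.595). It rested mainly on LPS 3, at 3.78 FPKM, and without LPS 3 it was -0.19. LPS 1 and LPS 2, at 18.2 and 17.8 FPKM, were also under every control, at 21.5, 20.2 and 20.1 FPKM. UQCRC2, a core protein of complex III, was at 39.6, 37.7 and 42.0 FPKM in controls and 32.8, 32.7 and 31.6 FPKM with LPS, without overlap (adjusted p from limma 0.342). COX7A2 of complex IV was at 22.1 FPKM in control 1 and 47.4 and 50 FPKM in the other controls, and between 23.2 and 25.9 FPKM with LPS. Among the carriers, VDAC2, a pore of the outer membrane, was at 54.5, 48.9 and 46.6 FPKM in controls and 72.4, 62.8 and 70.1 FPKM with LPS, with a log2 difference of 0.45 ± 0.10 and an adjusted p of 0.236 in limma. The most abundant genes of complexes I to IV, the carriers and the regulators overlapped between groups, unlike ATP5MD and ATPAF2 of the lists above. COX6A1 of complex IV was at 205 ± 3.64 and 207 ± 7.38 FPKM in controls and LPS libraries, and SLC25A6, an ADP/ATP carrier, at 151 ± 10.3 and 152 ± 8.69 FPKM. NDUFS8 of complex I was at 87.4 ± 1.38 and 86.1 ± 10.6 FPKM, and UQCRC1 of complex III at 104 ± 3.96 and 98.1 ± 4.71 FPKM. In complex II, SDHB was at 45 ± 1.31 and 45.4 ± 3.84 FPKM and SDHD, with the largest difference there, at 29.8 ± 1.03 and 28.6 ± 3.03 FPKM. Of 9 tested regulators of mitochondrial gene expression 6 had positive differences. POLRMT, the mitochondrial RNA polymerase, was at 16.7 ± 0.612 FPKM in controls and 18 ± 1.08 FPKM with LPS. GABPA, a transcription factor, was at 5.5 ± 0.209 FPKM in controls and 4.07 ± 0.845 FPKM with LPS.

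**Figure D5:**
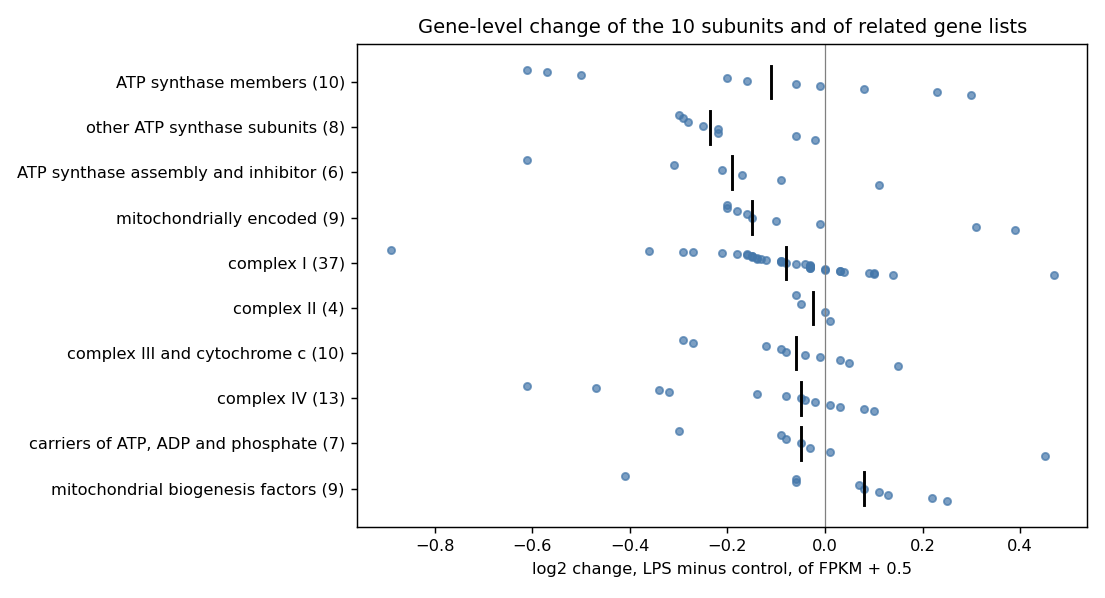
Log2 difference, LPS minus control, of each tested gene in the 10 subunits and in the related lists, with 1 point per gene, the number tested in brackets and a bar at the median. The medians lie between -0.24 for the other ATP synthase subunits and 0.08 for the biogenesis factors, and none of the points passed an adjusted p under 0.05.

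The genes whose profile was most like the mean of the 10 members were PRMT2, AKR7A2 and RPL41. Pearson's r over the 6 libraries was 0.985, 0.978 and 0.971, the highest among 4269 genes with a mean of at least 10 FPKM. These are the top values of many comparisons over few libraries that share their scaling, and are given as a description.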

How the data were processed

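RNA-seq values of 3 control and 3 LPS libraries were analysed. The deposited tables hold FPKM as calculated by the authors, and the submitters' processing notes name HISAT2 and StringTie without giving a version. The build in those notes is mm9, whereas the tables hold human Ensembl identifiers at GRCh38 coordinates, and 95.1% of the annotated genes were found in GENCODE 29. No read counts, depth or strand setting could be read from the labels or tables, so precision is judged from the replicates alone, and genes with overlapping or near-identical copies are uncertain. Of 30 annotated pseudogenes of the members, 3 had a mean of at least 0.5 FPKM and none exceeded 1.54 FPKM.

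A mean of 0.5 FPKM over the 6 libraries was required, and features were tested on log2(FPKM + 0.5), in which folds of low features are understated, using limma 3.58.1 (R 4.3.3). Group was the only term, with an eBayes trend and Benjamini-Hochberg adjustment over each whole table, two-sided, at 0.05. Isoform ratios were tested as log2 of the isoform over the rest of its gene, with 0.5 FPKM added to each. Tables were joined with Python 3.11.15 and pandas 2.3.3. Lengths and sequences came from GENCODE 29 transcripts, with ends moved to the deposited ones. Of 106 member transcripts 94 were matched, and at least 94.4% of a member's FPKM in a library had a length, except 75.6% for ATP5MC3 in LPS 2. Data were simulated with the real means and with normal noise at the variances that limma had shrunk towards its trend. Isoforms that switch between 0 and high FPKM were not imitated, so the rates below do not cover them. A log2 change of 1 was recovered in 82% of changed genes (12068 tested, 11 false calls). Log2 changes of 3 and 6 were recovered in 46% and 69% of transcripts (35727 tested, 6 false calls) and in 19% and 81% of isoform ratios (31057 tested, 0 false calls).

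The members, gene lists and tests were chosen with earlier results of these data known. The members are all named. Transcripts were described at a mean of at least 1 FPKM or a mean share of at least 5% in either group. Those whose mean share differed by at least 10 points, or that passed the transcript test, are given in every library. From each pathway list the most abundant gene and that with the largest difference were taken. MT-ATP6 and MT-ATP8 were added after values were seen. Alternatives were other pseudocounts, filters, scalings, a robust eBayes, a replicate block, shares over other transcript sets, leaving out each library, and, added after seeing the data, length-weighted totals.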

Additional observations from a re-analysis of the deposited data

How the results depend on the processing

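No read depth is given, so low values carry an unknown counting error, and a transcript listed at 0 may be an estimate that placed its fragments on another isoform. The limits of each count follow, and the cause of each change was not tested. Called protein-coding genes numbered 7 at first, 0 without a filter (1563 at an unadjusted p under 0.05 in limma), 2 as length-weighted totals, and 0 to 8 when a library was left out. They numbered 0 without control 2 and 0 without LPS 2 (1046 and 1213 at an unadjusted p under 0.05 in limma). Length-weighted totals with a library left out gave 0 to 15, with 0 without control 1 or LPS 2 (1269 and 1238 unadjusted) and 15 without LPS 1. Called transcripts numbered 35, then 22 without a filter and 44 to 60 with a library left out. Called isoform ratios numbered 27, then 43 without a filter and 0 to 16 with a library left out, with 0 without LPS 2 (1578 unadjusted). Shares that did not overlap numbered 3057, then 1870 at a minimum mean of 1 FPKM, 1518 in the protein-coding transcript table, and 5824 to 6377 with a library left out. The pathway lists gave 0 called genes under every alternative run.

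Library numbers are shared between groups, but same-numbered libraries deviated together only weakly (r = 0.017, 0.105 and 0.06), and 2 of 3 correlated best with their own number. The numbers therefore were not taken to pair the libraries. With the replicate block, called genes, transcripts and isoform ratios each numbered 0 (1451, 1888 and 1388 at an unadjusted p under 0.05 in limma).

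Among the 10 members, the log2 difference changed sign for ATP5MC2 as a length-weighted total, from -0.50 to 0.21. With 1 library left out it changed sign for ATP5F1A, ATP5F1C, ATP5PO and ATP5MC1, whose groups overlapped. ATP5PB-201, ATP5MC2-205 and ATP5F1C-204 belong to the genes whose isoform differences led to the choice, so what follows is a description. Their groups did not overlap, so leaving out a library could not reverse their direction. They kept it in all 14 alternatives. As transcripts they passed the threshold in 6, 13 and 13 of these, and ATP5PB-201 in 1 of the 6 that left out a library, the one without LPS 1. As isoform ratios, ATP5PB-201 passed in 13 of 15 alternatives and ATP5MC2-205 in 10 of 16, of which 1 of the 6 that left out a library, while ATP5F1C-204, not called at first, passed in 2 of 15.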
